A study of Mus musculus with 18 samples.

Results

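Mouse embryonic stem cells that had lost all 6 Pcgf proteins were compared with cells that had lost 4 of them, so that the difference carries the added loss of Pcgf2 and of Bmi1, which is also called Pcgf4. The comparison used 6 of the 18 libraries of the series, 3 labelled Pcgf-6KO (genotype Pcgf1/2/3/4/5/6-/-) and 3 labelled Pcgf-4KO (genotype Pcgf1/3/5/6-/-), which were chosen by their labels. The other 12 libraries were Ring1a/b-dKO, lacking both Ring1a and Ring1b, Ring1b-KO, Ring1a-KO and WT, with 3 libraries each. Both Pcgf genotypes lack Pcgf1, Pcgf3, Pcgf5 and Pcgf6, and no treatment or time point is named. Total RNA was taken from cells detached with trypsin and lysed in Trizol, and sequencing libraries were made with a TruSeq RNA kit.

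Polycomb repressive complex 1 (PRC1) is built on a RING1A or RING1B protein paired with 1 of the 6 PCGF proteins, and it places ubiquitin on histone H2A. Complexes with PCGF2 or BMI1 that also hold a CBX and a PHC protein are called canonical, and they bind the H3K27 methylation laid down by PRC2. Complexes with PCGF1, PCGF3, PCGF5 or PCGF6 are called variant and carry RYBP or YAF2. In embryonic stem cells PRC1 is best known for holding developmental genes, the Hox clusters among them, at low expression.

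Promoters of 5 genes are shown as examples of genes that differed and are described here: a Hox gene, another homeobox gene, a 2-cell-like gene and a pair of pluripotency genes. They were chosen after the values were seen. Each is 250 bases before to 50 bases after the RefSeq start (GRCm38.p6), 5′ to 3′ on the gene's strand, with every CG dinucleotide in capitals.
Hoxd13 (chr2:74667975-74668274, plus strand): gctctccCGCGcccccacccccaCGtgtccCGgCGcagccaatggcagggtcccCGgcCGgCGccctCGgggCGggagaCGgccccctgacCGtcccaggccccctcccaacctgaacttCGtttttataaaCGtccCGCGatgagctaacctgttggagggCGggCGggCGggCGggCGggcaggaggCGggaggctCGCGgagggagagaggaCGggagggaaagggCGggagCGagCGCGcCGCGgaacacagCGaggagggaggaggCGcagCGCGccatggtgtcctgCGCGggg
Dlx2 (chr2:71546705-71547004, minus strand): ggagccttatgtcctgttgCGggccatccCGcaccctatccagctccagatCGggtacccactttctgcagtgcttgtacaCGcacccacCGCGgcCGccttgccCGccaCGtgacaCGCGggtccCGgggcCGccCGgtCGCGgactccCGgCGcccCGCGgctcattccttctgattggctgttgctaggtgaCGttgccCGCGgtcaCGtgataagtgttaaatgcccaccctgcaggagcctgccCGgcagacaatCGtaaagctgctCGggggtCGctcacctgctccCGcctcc
Zscan4f (chr7:11397665-11397964, plus strand): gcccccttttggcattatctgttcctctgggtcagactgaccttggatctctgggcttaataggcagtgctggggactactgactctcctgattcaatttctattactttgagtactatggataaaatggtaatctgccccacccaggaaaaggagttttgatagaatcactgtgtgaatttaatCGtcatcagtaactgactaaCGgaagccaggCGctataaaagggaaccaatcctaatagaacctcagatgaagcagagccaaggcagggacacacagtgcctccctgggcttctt
Nanog (chr6:122707239-122707538, plus strand, the first of 2 entries): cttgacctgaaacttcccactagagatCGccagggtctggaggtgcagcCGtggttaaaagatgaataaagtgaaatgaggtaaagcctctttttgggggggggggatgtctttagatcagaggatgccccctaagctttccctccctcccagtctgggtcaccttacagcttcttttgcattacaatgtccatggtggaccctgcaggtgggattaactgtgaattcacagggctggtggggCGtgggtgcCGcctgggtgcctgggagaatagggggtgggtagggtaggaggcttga
Fgf4 (chr7:144861136-144861435, plus strand): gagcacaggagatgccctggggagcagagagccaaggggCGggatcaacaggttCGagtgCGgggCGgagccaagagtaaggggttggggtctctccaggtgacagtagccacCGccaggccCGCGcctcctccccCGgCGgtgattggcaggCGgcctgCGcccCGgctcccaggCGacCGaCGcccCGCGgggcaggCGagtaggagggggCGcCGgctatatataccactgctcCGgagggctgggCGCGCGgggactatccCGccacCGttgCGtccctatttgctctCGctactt
The Hoxd13 window held 37 CG dinucleotides, a number that 5.58% of 32851 mouse promoter windows of this length reach or pass. Dlx2 held 29 (12.9% of windows hold as many or more), Fgf4 28 (14.2%), Nanog 4 (68.6%) and Zscan4f 3 (76.7%), against a median of 7. The letters ATGCAAA, which resembles the Oct4 side of an Oct4-Sox2 element, and ACAATG, which resembles its Sox2 side, were searched on both strands. Of these 5 windows only that of Nanog held them, and they occur in 4.63% and 12.6% of all windows. These letters were not among those first planned, and no conclusion is drawn from where they occur. Hoxd13 and Dlx2, with CG-rich windows, were higher in Pcgf-6KO, while Fgf4, also with a CG-rich window, was lower.

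Expression was deposited as TPM, a share of all transcripts corrected for gene length. Testing took in every gene that reached 1 TPM in 3 or more of the 18 libraries, which left 17842 of 56551. Differences are log2 fold changes of Pcgf-6KO over Pcgf-4KO on log2(TPM + 1), given with the standard error (SE), which understates the change of genes with low values. Calls were made where the adjusted p was under 0.05. Separate cultures or clones are not mentioned for replicates, so the p-values measure the spread between these libraries, and a difference between the cell lines other than Pcgf2 and Bmi1 cannot be told apart from the genotype. In RNA from whole cultures, a change in the share of cells of a type and a change in RNA per cell cannot be told apart either.

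Markers of embryonic stem cells were present in both groups. Pou5f1 (Oct4), the factor that defines the pluripotent state, stood at 427, 422 and 386 TPM in Pcgf-6KO and 627, 616 and 620 TPM in Pcgf-4KO. The libraries stood apart in 3 further ways. Genes at 1 TPM or more numbered 16236 to 16585 in Pcgf-6KO and 15289 to 15368 in Pcgf-4KO, and mitochondrial transcripts took 3.58% to 4.65% and 5.98% to 6.19% of the total. The median SD of a gene on the log2 scale was 0.151 between Pcgf-6KO libraries and 0.0872 between Pcgf-4KO libraries, and replicate 1 of Pcgf-6KO lay 0.138 below replicate 3 at the median gene (a difference of -0.138). Transcripts of Y-linked genes were present in Pcgf-6KO and near 0 in Pcgf-4KO.

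The targeted genes were read first. Pcgf2 had 17.9, 15.4 and 17.0 TPM in Pcgf-6KO, against 55.1, 53.3 and 57.5 TPM in Pcgf-4KO. All Pcgf-6KO libraries were lower, by -1.67 ± 0.07 on the log2 scale (SE, adjusted p = 5.31e-11), and the WT mean was 68.6 TPM. Bmi1 had 14.3, 16.1 and 16.3 TPM in Pcgf-6KO and 13.8, 8.99 and 11.4 TPM in Pcgf-4KO. It was not called (0.43 ± 0.19, adjusted p = 0.0645), except without Pcgf-4KO replicate 1 (0.57, adjusted p = 0.0309), and both groups lay above WT, at 1.60 ± 0.82 TPM (SD, n = 3). A value summed over a gene's transcripts cannot tell whether an exon is missing, so a remaining Bmi1 level does not check the label.

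Among the genes that both genotypes lack, Pcgf6 differed most. It had 11, 11.2 and 9.73 TPM in Pcgf-6KO and 0.07, 0 and 0.1 TPM in Pcgf-4KO, against a WT mean of 53.01 TPM. The groups did not overlap (3.46 ± 0.06, adjusted p = 5.74e-15), so the lines differ in the Pcgf6 RNA that remains. Pcgf5 was also higher, at 23.3, 22.04 and 21.0 TPM in Pcgf-6KO and 13.2, 15.7 and 14.7 TPM in Pcgf-4KO (0.58 ± 0.08, adjusted p = 1.34e-05). Both groups lay above its WT mean of 9.55 TPM. Pcgf1 had 2.16, 4.28 and 2.66 TPM in Pcgf-6KO and 2.58, 0.28 and 0.82 TPM in Pcgf-4KO, against a WT mean of 10.9 TPM. It was called higher (0.96 ± 0.27, adjusted p = 0.00831), but the libraries overlapped and the call was lost when the 6 libraries were fitted alone (adjusted p = 0.105). The difference was 1.62 with a pseudocount of 0.1 TPM and 0.63 without Pcgf-4KO replicate 2. Pcgf3 and Ring1, which encodes RING1A, were not called (adjusted p = 0.715 and 0.883). Pcgf3 averaged 12.4 TPM in Pcgf-6KO, 11.8 TPM in Pcgf-4KO and 13.2 TPM in WT. As for Bmi1, the remaining RNA of these Pcgf genes does not check the label. Rnf2, which encodes RING1B, was slightly lower, with 75.8, 79.9 and 81.2 TPM in Pcgf-6KO and 88.3, 91.0 and 98.9 TPM in Pcgf-4KO (-0.23 ± 0.08, adjusted p = 0.0267). That call ended without Pcgf-4KO replicate 3 (adjusted p = 0.109) and without Pcgf-6KO replicate 1 (0.0841) or replicate 2 (0.0507).

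**Figure D1:**
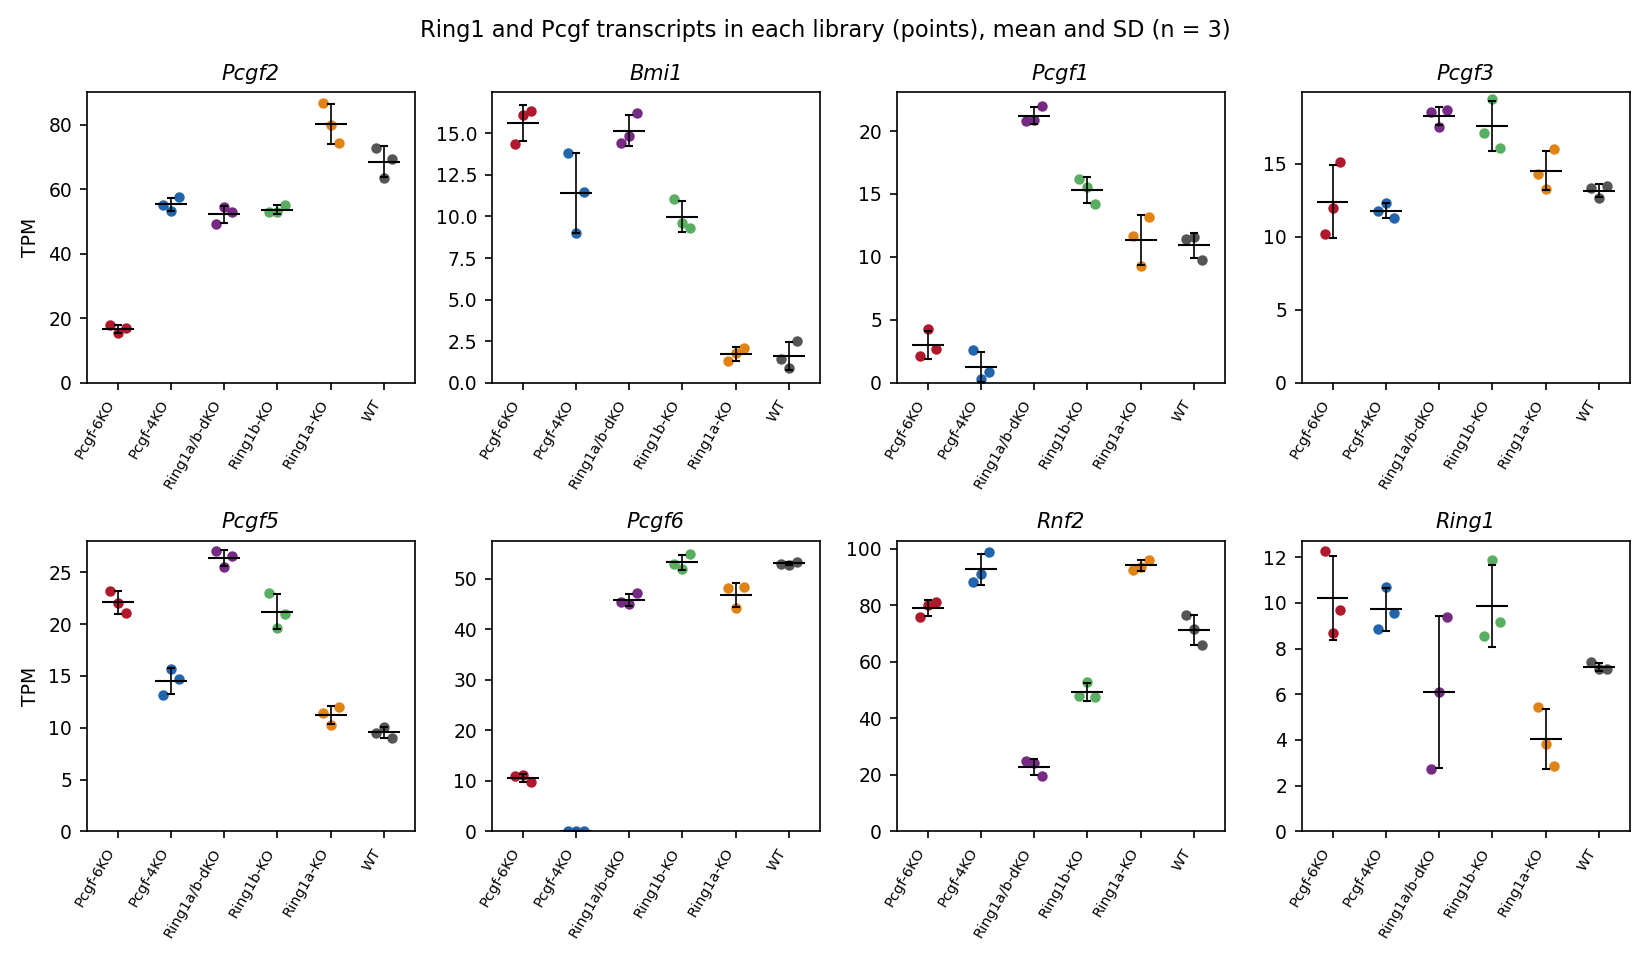
TPM of the 8 Ring1 and Pcgf genes in each library of the 6 groups (points), with the mean (line) and SD (bars, n = 3). Pcgf2 is lower in Pcgf-6KO than in Pcgf-4KO, Pcgf6 is near 0 in Pcgf-4KO and near 11 TPM in Pcgf-6KO, and Bmi1 stands above WT in both.

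Of the 17842 genes tested, 9422 were called (52.8%), of which 5147 were higher in Pcgf-6KO (28.8%) and 4275 lower (24.0%). The larger side depended on the scaling: higher genes made up 54.6% of the calls as deposited, 48.3% after median ratio scaling, 41.3% with quantile-normalized values and 45.8% among nuclear protein-coding genes alone. Large changes were mostly increases. At least 2-fold higher were 1368 genes (7.67%) and at least 2-fold lower 323 (1.81%), and the higher set stayed the larger under every alternative tried. The 2 groups of libraries did not overlap for 9996 genes (56.0%), and the median over all genes was 0.03. The counts by gene list given below are to be read against 28.8% higher and 24.0% lower over all genes tested.

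The 1368 genes had low levels in WT. Their median level was 7.87 TPM in Pcgf-6KO, 1.58 in Pcgf-4KO, 2.50 in Ring1a/b-dKO and 1.12 in WT, and 661 of them averaged under 1 TPM in WT. Over all genes tested, 14220 of 17842 averaged 1 TPM or more in WT. Protein-coding genes made up 49.9% of the 1368, while 14345 of the 17842 genes tested were protein-coding. For 323 of the 1368 no type or position was found. These count as not protein-coding and are left out of the span. The median span on the genome was 6049 bases against 18267 for all genes tested. The 323 lower genes had medians of 5.67 TPM in Pcgf-6KO, 16.8 in Pcgf-4KO, 12.4 in Ring1a/b-dKO and 15.9 in WT, and 78.0% were protein-coding. No type or position was found for 43 of the lower genes. These levels describe sets that were chosen by the same difference.

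**Figure D2:**
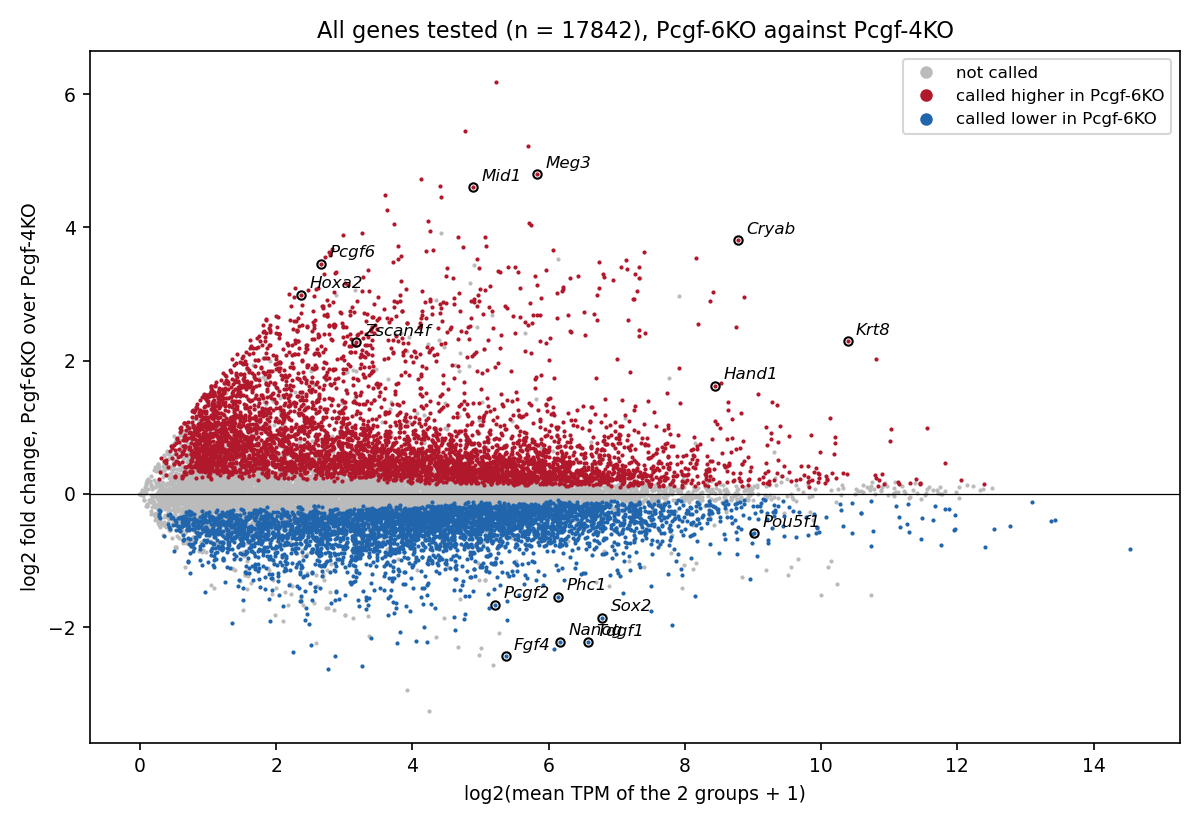
Each point is 1 of the 17842 genes tested, with the log2 of the mean TPM of the 2 groups plus 1 across and the log2 fold change of Pcgf-6KO over Pcgf-4KO up. Red and blue mark genes called higher and lower in Pcgf-6KO, and most large changes lie above 0, from Meg3 and Cryab to Krt8, while Fgf4, Nanog and Tdgf1 are among the falls.

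Pluripotency genes fell together. Of 18 core pluripotency genes, all tested, 16 were lower and 0 higher in Pcgf-6KO, with a median of -0.74 against 0.03 over all genes. Their summed level was 2504 to 2918 TPM in Pcgf-6KO, 4730 to 4827 TPM in Pcgf-4KO and 6048 to 6153 TPM in WT. Nanog, a homeobox factor of the pluripotency network (chr6:122707489-122714633), had 23.7, 24.2 and 25.5 TPM in Pcgf-6KO, against 115, 118 and 119 TPM in Pcgf-4KO. Every Pcgf-6KO library lay far below every Pcgf-4KO library (-2.22 ± 0.05, adjusted p = 7.48e-14). Sox2, the partner of Oct4, had 45.9, 46.0 and 48.4 TPM in Pcgf-6KO and 168, 176 and 173 TPM in Pcgf-4KO (-1.86 ± 0.06, adjusted p = 1.97e-12). Fgf4, a growth factor gene driven by Oct4 and Sox2, had 10.7, 12.2 and 12.9 TPM in Pcgf-6KO and 68.6, 70.2 and 67.3 TPM in Pcgf-4KO. It showed the largest fall among the named genes (-2.44 ± 0.06, adjusted p = 2.33e-13). Tdgf1, the Nodal co-receptor Cripto, had 31.1, 32.6 and 33.9 TPM in Pcgf-6KO and 158, 156 and 154 TPM in Pcgf-4KO. Its groups did not overlap (-2.23 ± 0.04, adjusted p = 1.06e-14). WT means were 108 TPM for Nanog, 247 TPM for Sox2, 110 TPM for Fgf4 and 693 TPM for Tdgf1, so Tdgf1 was already far below WT in Pcgf-4KO. Pou5f1 fell less, by -0.59 ± 0.04 (adjusted p = 1.10e-08), and Zfp42 (Rex1), a marker of the naive state, by -0.67 ± 0.04 (adjusted p = 9.22e-09). Tdh, the threonine dehydrogenase that mouse stem cells depend on, had 17.3, 16.4 and 16.4 TPM in Pcgf-6KO and 66.0, 63.8 and 65.2 TPM in Pcgf-4KO (-1.90 ± 0.03, adjusted p = 5.74e-15), and is not on the list. Its WT mean was 271 TPM. Sall1 and Dppa2 were the 2 list members that did not pass.

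The 17 naive pluripotency genes, which mark the ground state of the epiblast, were all tested, and 16 were lower and 0 higher, with a median of -1.03. Nr0b1 (Dax1), a nuclear receptor of the network, had 9.65, 9.95 and 12.2 TPM in Pcgf-6KO and 42.9, 41.0 and 41.0 TPM in Pcgf-4KO. The groups were well apart (-1.89 ± 0.07, adjusted p = 2.64e-11). Nr5a2, a nuclear receptor that can act on Pou5f1, had 5.53, 5.93 and 6.93 TPM in Pcgf-6KO and 23.9, 23.2 and 22.4 TPM in Pcgf-4KO (-1.76 ± 0.10, adjusted p = 1.16e-09). Among formative and primed genes, 19 of 20 were tested and 4 were higher and 9 lower, with a median of -0.24. Otx2, a homeobox factor of the formative epiblast, went the other way. It had 9.31, 9.88 and 10.6 TPM in Pcgf-6KO and 0.09, 0.33 and 0.44 TPM in Pcgf-4KO (3.10 ± 0.10, adjusted p = 3.48e-12), and the WT mean was 13.8 TPM, so that Pcgf-4KO was the low group.

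Chromosome 6, which carries Nanog, stood apart. Of its 793 tested genes, 134 were higher and 346 lower in Pcgf-6KO, with a median of -0.20, while the medians of the other autosomes lay between -0.03 and 0.10. The shift lay mainly from 75 Mb on, where 238 of 462 genes were lower (51.5%, median -0.31), against 108 of 331 below 75 Mb (32.6%, median -0.06). The boundary was set after the values were seen. Against WT, the median log2 difference of chromosome 6 was 0.155 in Pcgf-6KO and 0.253 in Pcgf-4KO. The medians of the other autosomes lay between 0.251 and 0.549 in Pcgf-6KO and between 0.171 and 0.513 in Pcgf-4KO. Chromosome 6 thus lay outside the range of the other autosomes in Pcgf-6KO and within it in Pcgf-4KO. Of the core pluripotency genes 3 lie from 75 Mb on and all 3 were lower, and of the other 15 tested 13 were lower, with a median of -0.69. No naive gene lies there. The fall of Nanog, at -2.22, was larger than the median of that stretch, at -0.31, and the part of the chromosome in it was not tested.

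Other genes of stem cell chromatin were also lower. Tet1, which oxidises 5-methylcytosine, had 13.5, 22.7 and 31.2 TPM in Pcgf-6KO and 114, 108 and 111 TPM in Pcgf-4KO. The Pcgf-6KO libraries spread widely but stayed below (-2.33 ± 0.18, adjusted p = 5.29e-08). Dnmt3b, a de novo DNA methyltransferase, had 82.7, 102 and 116 TPM in Pcgf-6KO and 267, 268 and 251 TPM in Pcgf-4KO (-1.39 ± 0.08, adjusted p = 2.56e-09). Uhrf1, which brings Dnmt1 to replicated DNA, had 60.6, 71.9 and 82.1 TPM in Pcgf-6KO and 166, 169 and 164 TPM in Pcgf-4KO (-1.22 ± 0.07, adjusted p = 3.17e-09). Of 12 DNA methylation and demethylation genes, 6 were lower and 1, the methyl-CpG binding protein gene Mbd2, was higher, with a median of -0.43.

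Of 13 PRC2 genes, 9 were lower and 0 higher in Pcgf-6KO, with a median of -0.36. Jarid2, which helps to bring PRC2 to its targets, had 78.7, 90.0 and 105 TPM in Pcgf-6KO and 178, 179 and 191 TPM in Pcgf-4KO (-1.004 ± 0.161, adjusted p = 9.02e-05). The groups did not overlap. Epop, an accessory subunit, had 149, 148 and 143 TPM in Pcgf-6KO and 251, 250.4 and 241 TPM in Pcgf-4KO (-0.75 ± 0.05, adjusted p = 3.36e-09). The canonical PRC1 partners were split, with 4 of 10 higher and 3 lower and a median of 0.10. Over all genes tested 28.8% were higher and 24.0% lower. Cbx8, a reader of H3K27 methylation, had 22.8, 20.4 and 22.4 TPM in Pcgf-6KO and 8.55, 9.60 and 7.59 TPM in Pcgf-4KO, against 0.25 TPM in WT. It was higher in every Pcgf-6KO library (1.26 ± 0.17, adjusted p = 1.40e-05). Phc1, a polyhomeotic subunit that lies close to Nanog on chromosome 6, had 29.9, 34.6 and 40.9 TPM in Pcgf-6KO and 107, 105 and 98.5 TPM in Pcgf-4KO (-1.54 ± 0.08, adjusted p = 4.90e-10). Of 21 variant PRC1 genes, 2 were higher and 8 lower, with a median of -0.02.

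Hox genes, which pattern the body axis and are the textbook targets of Polycomb, were higher in Pcgf-6KO. Of 39 Hox genes 37 passed the filter, and all 37 of those were called higher, with a median of 1.61. Because a gene could pass through the Pcgf-6KO libraries alone, the 13 that stood at 1 TPM or more in Pcgf-4KO are given too: all 13 were higher, with a median of 1.39. Hoxd13, the last gene of its cluster, had 10.96, 11.8 and 12.4 TPM in Pcgf-6KO and 2.20, 1.84 and 2.05 TPM in Pcgf-4KO, with 0.467 TPM in WT. The groups were far apart (2.07 ± 0.12, adjusted p = 1.90e-09). Hoxa2, a hindbrain gene, had 7.55, 8.10 and 8.74 TPM in Pcgf-6KO and 0.12, 0.08 and 0.25 TPM in Pcgf-4KO (2.99 ± 0.12, adjusted p = 5.82e-11). Hoxa11, a limb gene, had 8.68, 8.10 and 8.11 TPM in Pcgf-6KO and 0.54, 0.72 and 0.58 TPM in Pcgf-4KO (2.53 ± 0.07, adjusted p = 1.58e-12). Hoxb2 had 4.45, 5.48 and 5.66 TPM in Pcgf-6KO and was listed at 0 in each Pcgf-4KO library.

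Other developmental regulators moved less uniformly. Of 79 other homeobox genes 69 were tested, and 38 were higher and 8 lower, with a median of 0.47, and of the 47 at 1 TPM or more in Pcgf-4KO 24 were higher and 8 lower. Dlx2, a forebrain and jaw gene, had 10.01, 10.2 and 10.3 TPM in Pcgf-6KO and 0.60, 0.61 and 0.54 TPM in Pcgf-4KO. The groups did not overlap (2.82 ± 0.14, adjusted p = 3.34e-10). Alx1, a craniofacial gene, had 6.74, 7.72 and 7.32 TPM in Pcgf-6KO and 0.99, 0.48 and 0.61 TPM in Pcgf-4KO (2.30 ± 0.11, adjusted p = 3.22e-10). Gbx2, a hindbrain-border gene that is also on the naive pluripotency list, was lower, with 3.72, 3.83 and 5.07 TPM in Pcgf-6KO and 8.23, 8.01 and 7.99 TPM in Pcgf-4KO (-0.81 ± 0.09, adjusted p = 1.39e-06). Of 31 Pax, Sox and Fox genes 22 were tested, and 12 were higher and 2, Sox11 and Sox18, were lower (median 0.41), but of the 13 at 1 TPM or more in Pcgf-4KO only 4 were higher and 2 lower (median 0.22).

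Germ layer lists were mixed. Of 32 mesoderm genes 25 were tested, with 11 higher and 4 lower, and of 25 endoderm genes 21 were tested, with 11 higher and 3 lower. Their medians were 0.22 each as deposited and turned to -0.04 and -0.02 after quantile normalization. Of the 19 mesoderm genes at 1 TPM or more in Pcgf-4KO, 8 were higher and 4 lower, and of the 17 such endoderm genes 9 were higher and 3 lower. Gata4, an endoderm and heart factor, had 12.9, 13.95 and 14.5 TPM in Pcgf-6KO and 6.61, 6.89 and 7.14 TPM in Pcgf-4KO (0.91 ± 0.07, adjusted p = 9.15e-08). Gata6, its primitive endoderm relative, had 7.53, 9.43 and 9.88 TPM in Pcgf-6KO and 4.48, 3.5 and 3.22 TPM in Pcgf-4KO (1.07 ± 0.11, adjusted p = 1.01e-06). Both were higher without overlap. Lama1, a laminin of early basement membranes, was lower, with 1.05, 1.65 and 2.22 TPM in Pcgf-6KO and 8.22, 7.03 and 4.81 TPM in Pcgf-4KO (-1.54 ± 0.17, adjusted p = 2.61e-06). The neural list divided evenly, with 10 of 24 tested genes (of 34) higher and 10 lower and a median of -0.30. Of its 20 genes at 1 TPM or more in Pcgf-4KO, 7 were higher and 9 lower. Zic1, a dorsal neural factor, had 7.59, 8.67 and 9.23 TPM in Pcgf-6KO and 0.80, 1.60 and 1.27 TPM in Pcgf-4KO (2.11 ± 0.16, adjusted p = 3.77e-08). Olig2, a motor neuron and oligodendrocyte factor, had 4.20, 4.14 and 4.90 TPM in Pcgf-6KO and 22.04, 21.7 and 21.6 TPM in Pcgf-4KO (-2.08 ± 0.06, adjusted p = 1.42e-12). These values went in opposite directions within 1 list, each without overlap.

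Simple-epithelial and trophoblast genes reached the highest levels. Of 26 trophoblast genes 24 were tested, and 16 were higher and 5 lower, with a median of 0.63. Their summed level was 7552 to 7663 TPM in Pcgf-6KO, 2726 to 2819 TPM in Pcgf-4KO and 550 to 588 TPM in WT. In Pcgf-6KO most of that sum came from the keratin genes Krt8 and Krt18, at means of 2228 and 2863 TPM. In Pcgf-4KO their means were 455 and 703 TPM. Krt8, a keratin of simple epithelia, had 2229, 2262 and 2192 TPM in Pcgf-6KO and 473, 437 and 455 TPM in Pcgf-4KO. The groups were far apart (2.29 ± 0.05, adjusted p = 3.85e-14). Krt18, the partner of Krt8, had 2921, 2850 and 2819 TPM in Pcgf-6KO and 698, 702 and 709 TPM in Pcgf-4KO (2.02 ± 0.06, adjusted p = 1.58e-12). Hand1, a trophoblast giant cell and heart factor, had 506, 530 and 538 TPM in Pcgf-6KO and 172, 173 and 164 TPM in Pcgf-4KO, against 2.45 TPM in WT. It was higher in every Pcgf-6KO library (1.63 ± 0.06, adjusted p = 1.04e-11). Tfap2a, an ectoderm and trophoblast factor, had 9.71, 8.52 and 9.74 TPM in Pcgf-6KO and 1.02, 0.85 and 1.09 TPM in Pcgf-4KO (2.38 ± 0.10, adjusted p = 9.01e-11). Cdx2, which starts the trophectoderm programme, had 8.35, 9.65 and 10 TPM in Pcgf-6KO and 3.86, 3.46 and 3.63 TPM in Pcgf-4KO (1.15 ± 0.11, adjusted p = 4.18e-07). Other trophoblast factors did not follow. Eomes was not called, and Tfap2c, Tead4 and Elf5 were lower than in Pcgf-4KO. Tfap2c averaged 34.3 TPM in Pcgf-6KO and 18.4 TPM in WT, and Tead4 16.4 and 6.63 TPM, so both stayed above WT. Prl3d1, a placental lactogen of giant cells, and Psg17 stayed below the filter.

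Of 22 stratified epithelial genes 15 were tested, and 9 were higher and 2 lower, with a median of 0.49. Krt14, a basal keratin, had 10.8, 12.3 and 11.04 TPM in Pcgf-6KO and 1.32, 0.92 and 1.19 TPM in Pcgf-4KO (2.53 ± 0.14, adjusted p = 1.08e-09). Perp, a desmosome component and p53 target, had 311, 313 and 318 TPM in Pcgf-6KO and 109, 109 and 109 TPM in Pcgf-4KO (1.51 ± 0.07, adjusted p = 1.31e-10). Both were higher without overlap, while Krt5 and Trp63, which define basal epidermis, stayed below the filter. Of 19 annexin, S100 and galectin genes, which bind calcium and membranes or sugars, 16 were higher and 1 lower, with a median of 0.91. Anxa5 had 103, 96.1 and 90.6 TPM in Pcgf-6KO and 20.5, 18.5 and 17.6 TPM in Pcgf-4KO (2.30 ± 0.10, adjusted p = 1.32e-10). Lgals3, galectin-3, had 406, 390 and 346 TPM in Pcgf-6KO and 102, 102 and 101 TPM in Pcgf-4KO (1.89 ± 0.08, adjusted p = 8.22e-11). The exception was Anxa4. It lies on the stretch of chromosome 6 described above, and the part of its position in its lower level was not tested.

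**Figure D3:**
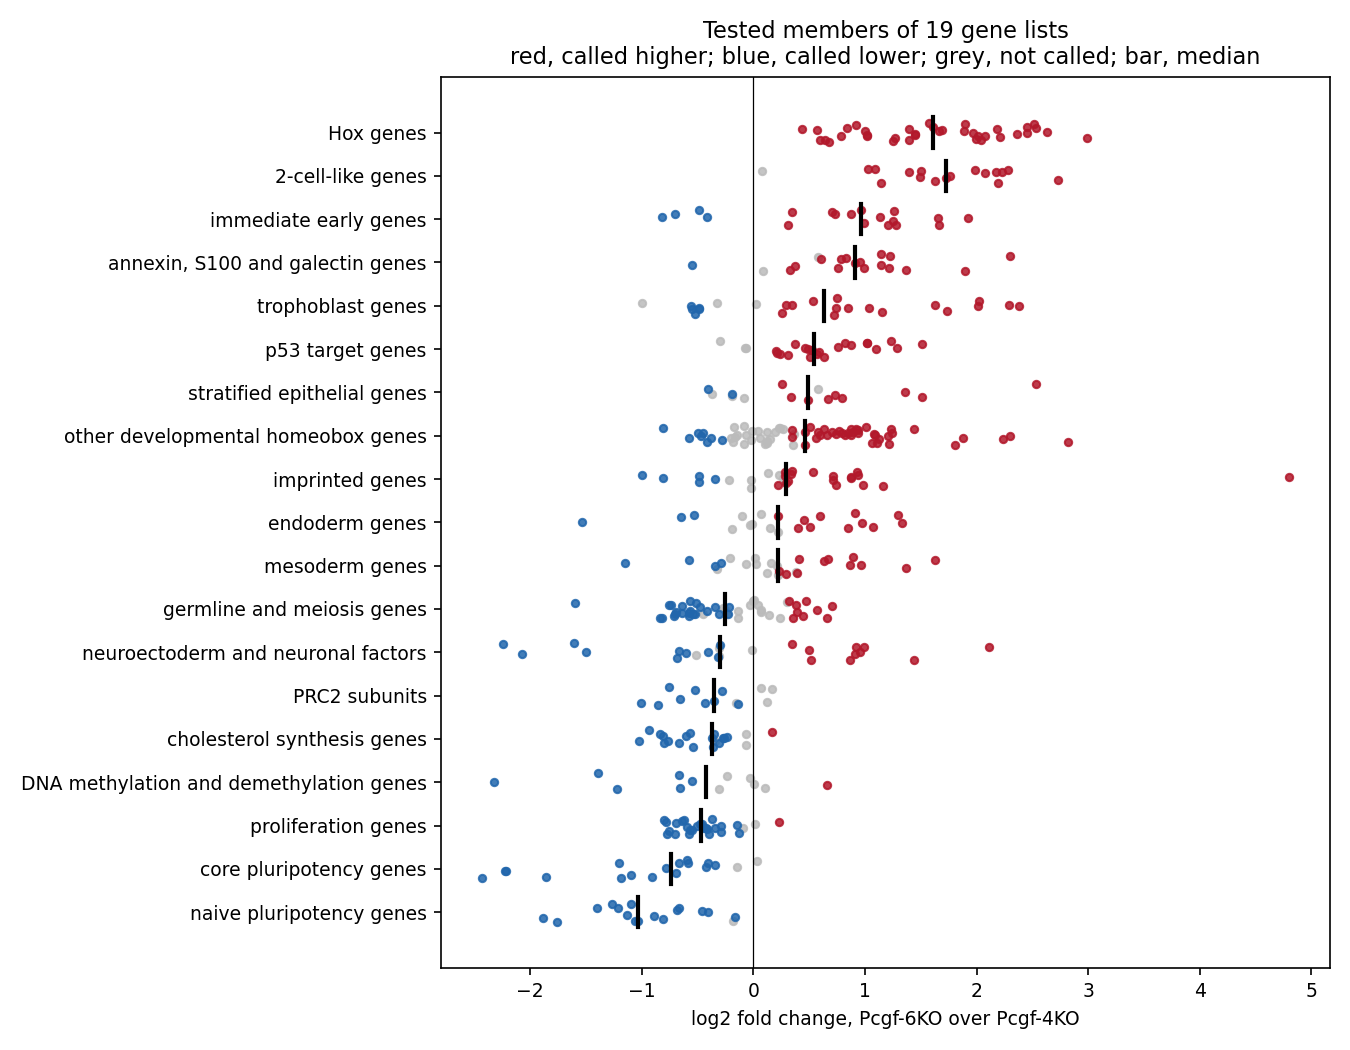
Log2 fold change of Pcgf-6KO over Pcgf-4KO (across) for the tested members of 19 of the gene lists (down), each point 1 gene, red if called higher, blue if called lower and grey if not called, with the median as a black bar. Hox and 2-cell-like genes lie to the right, with medians of 1.61 and 1.72, and the core and naive pluripotency genes to the left, with medians of -0.74 and -1.03.

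Cryab, which encodes the small heat shock protein alpha-B crystallin, had 830.3, 833 and 804 TPM in Pcgf-6KO and 60.7, 56.1 and 56.2 TPM in Pcgf-4KO. It stood at 60.5 TPM in Ring1a/b-dKO and 3.22 TPM in WT, and Pcgf-6KO was the highest of the 6 groups (3.81 ± 0.08 over Pcgf-4KO, adjusted p = 6.99e-14). Unc5d, a netrin receptor gene, was likewise high in Pcgf-6KO, with 297, 275 and 359 TPM, against 15.9, 28.9 and 29.8 TPM in Pcgf-4KO (3.63 ± 0.22, adjusted p = 3.01e-09). Ring1a/b-dKO averaged 61.3 TPM and WT 38.1 TPM. Tagln, an actin-binding protein of smooth muscle, had 116, 107 and 101 TPM in Pcgf-6KO and 19.3, 21.2 and 20.8 TPM in Pcgf-4KO (2.35 ± 0.11, adjusted p = 3.34e-10). Of 21 tested muscle genes (of 26), 10 were higher and 4 lower (median 0.30). At 1 TPM or more in Pcgf-4KO were 17 of the muscle genes, of which 8 were higher and 3 lower. Fibroblast and matrix genes showed no common direction, with 7 higher and 6 lower of 19 tested (of 26) and a median of -0.01. Their summed level was 1610 to 1837 TPM in Pcgf-6KO and 1113 to 1142 TPM in Pcgf-4KO, mostly from Sparc. Col1a2, Dcn and Lum stayed below the filter. Blood and endothelial markers summed to 152 to 169 TPM in Pcgf-6KO and 168 to 171 TPM in Pcgf-4KO. Of their 11 tested members (of 20), 3 were higher and 5 lower, and Emcn and Hbb-bt were listed at 0 in both groups.

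Genes of the 2-cell-like state, a rare state of stem cell cultures that resembles the 2-cell embryo, were higher in Pcgf-6KO. Of 20 such genes 17 were tested, and 16 were higher and 0 lower, with a median of 1.72. Of the 7 at 1 TPM or more in Pcgf-4KO, 6 were higher. Zscan4f, a telomere-linked zinc finger gene of that state, had 13.3, 12.6 and 16.03 TPM in Pcgf-6KO and 1.81, 1.95 and 2.48 TPM in Pcgf-4KO, and was listed at 0 in each WT library. The groups did not overlap (2.28 ± 0.11, adjusted p = 2.72e-10). Tmem92 had 9.28, 9.09 and 9.64 TPM in Pcgf-6KO and 1.72, 1.05 and 0.93 TPM in Pcgf-4KO (2.23 ± 0.11, adjusted p = 4.32e-10). Zscan4 and Usp17l genes are near-identical copies, and how their reads were shared is not given in the sources used here, so the level of a single copy is uncertain. Ring1b-KO, the line lacking RING1B alone, averaged 19.8 TPM of Zscan4f, so a high level was not confined to Pcgf-6KO.

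**Figure D4:**
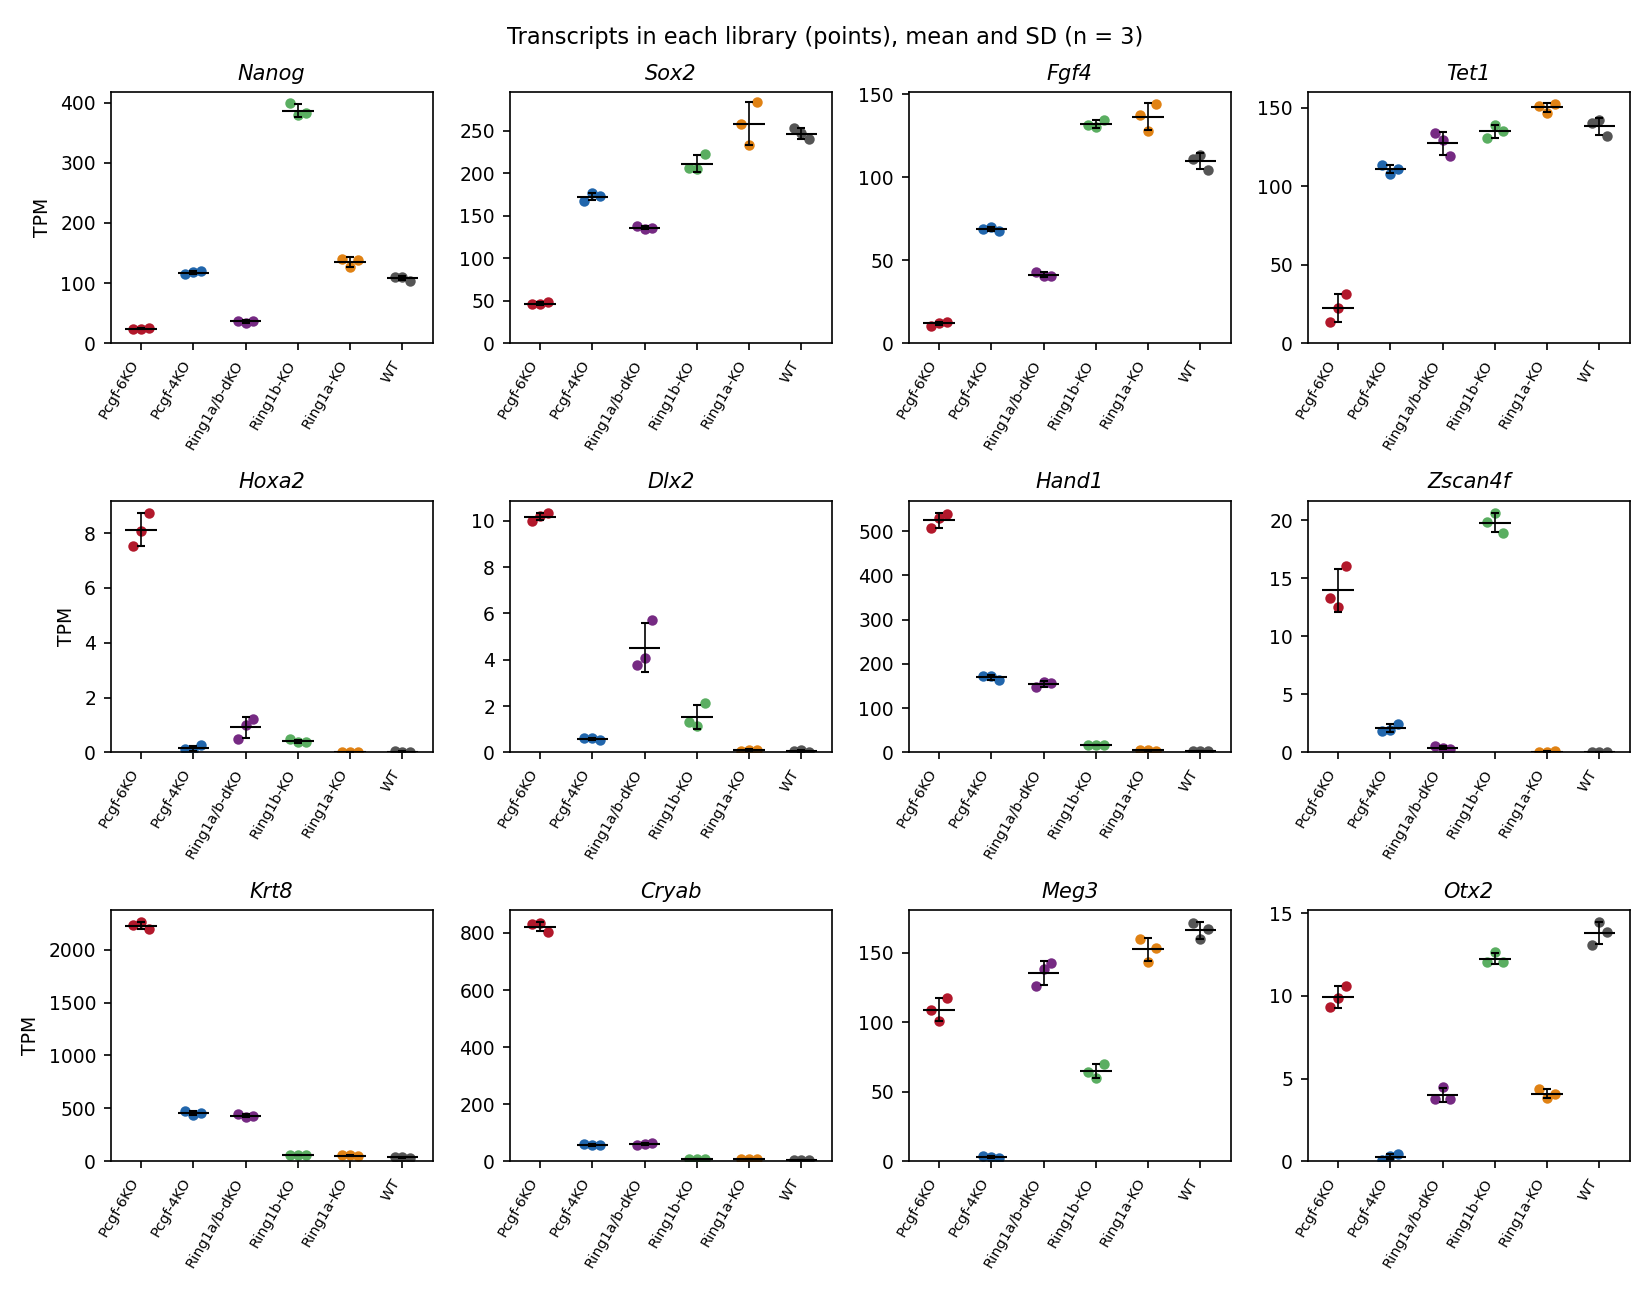
TPM of 12 named genes in each library of the 6 groups (points), with the mean (line) and SD (bars, n = 3). Cryab and Krt8 are highest in Pcgf-6KO, Nanog, Sox2, Fgf4 and Tet1 are lowest there, and Meg3 and Otx2 are low in Pcgf-4KO rather than raised in Pcgf-6KO relative to WT.

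Germline and meiosis genes, which the variant PCGF6 complex is known to hold silent, ran the other way in part. Of 49 genes 47 were tested, and 9 were higher and 23 lower in Pcgf-6KO, with a median of -0.25. Mov10l1, an RNA helicase of the piRNA pathway, had 21.9, 23.6 and 25.6 TPM in Pcgf-6KO and 43.7, 41.0 and 42.9 TPM in Pcgf-4KO, against 1.10 TPM in WT. The groups were apart (-0.82 ± 0.09, adjusted p = 2.67e-06). Asz1, a germ granule gene on chromosome 6 below 75 Mb, had 2.70, 2.83 and 2.28 TPM in Pcgf-6KO and 9.28, 10.96 and 9.49 TPM in Pcgf-4KO (-1.60 ± 0.09, adjusted p = 2.70e-09). Rhox6, an X-linked homeobox gene of the germline, was higher, with 302, 277 and 263 TPM in Pcgf-6KO and 188, 187 and 189 TPM in Pcgf-4KO (0.57 ± 0.07, adjusted p = 5.45e-06). The lower genes stood beside the Pcgf6 RNA given above, which was near 0 in Pcgf-4KO and near 11 TPM in Pcgf-6KO. Its part in these values was not tested.

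Cell cycle genes differed in both directions. Of 28 proliferation genes 25 were lower and 1, Tyms, was higher, with a median of -0.47, and the Tyms call was lost under median ratio scaling (adjusted p = 0.0745). Ccnb2, a mitotic cyclin, had 56.7, 56.3 and 53.9 TPM in Pcgf-6KO and 99.0, 95.2 and 93.5 TPM in Pcgf-4KO (-0.78 ± 0.03, adjusted p = 1.36e-10). Cdt1, which licenses replication origins, had 68.2, 68.6 and 73.0 TPM in Pcgf-6KO and 121, 121 and 121 TPM in Pcgf-4KO (-0.79 ± 0.04, adjusted p = 9.27e-10). Of 8 CDK inhibitor genes 5 were higher and 1, Cdkn3, was lower. Cdkn1a (p21), the inhibitor that p53 induces, had 248, 263 and 273 TPM in Pcgf-6KO and 110, 112 and 111 TPM in Pcgf-4KO (1.23 ± 0.04, adjusted p = 5.87e-12). Cdkn2a, which encodes p16 and p19Arf and is a textbook Bmi1 target, had 98.6, 91.9 and 83.2 TPM in Pcgf-6KO and 56.5, 62.9 and 57.5 TPM in Pcgf-4KO. Both inhibitors were higher without overlap, Cdkn2a by 0.62 ± 0.08 (adjusted p = 1.29e-05). Of 24 p53 target genes 21 were higher and 0 lower, with a median of 0.54. Fas, the death receptor, had 2.86, 2.83 and 3.66 TPM in Pcgf-6KO and 1.03, 0.31 and 0.78 TPM in Pcgf-4KO (1.29 ± 0.17, adjusted p = 1.52e-05).

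Signal-response and metabolic genes also differed, with counts to be read against 28.8% higher and 24.0% lower over all genes tested. Of 22 immediate early genes 19 were tested, with 15 higher and 4 lower and a median of 0.96. Atf3, a stress-induced factor, had 38.8, 36.1 and 42.7 TPM in Pcgf-6KO and 8.83, 9.91 and 10.1 TPM in Pcgf-4KO (1.92 ± 0.18, adjusted p = 3.43e-07). Ccn1 (Cyr61), a secreted matrix protein induced by YAP and serum, had 529, 566 and 585 TPM in Pcgf-6KO and 174, 179 and 176 TPM in Pcgf-4KO (1.66 ± 0.05, adjusted p = 1.97e-12). Both were higher without overlap, while Egr1, Dusp6 and Myc, which respond to growth factor signalling, were among the 4 lower ones. Of 21 cholesterol synthesis genes 17 were lower and 1, Pmvk, was higher, with a median of -0.37, and the Pmvk call was lost under 11 of the 14 alternatives. Insig1, which retains the sterol sensor in the endoplasmic reticulum, had 20.9, 24.5 and 25.1 TPM in Pcgf-6KO and 47.9, 48.8 and 49.3 TPM in Pcgf-4KO (-1.02 ± 0.06, adjusted p = 2.33e-09). Of 24 glycolysis and hypoxia genes 6 were higher and 13 lower (median -0.11), 4 of the 13 on chromosome 6 from 75 Mb on, and of 20 tested integrated stress response genes (of 21) 7 were higher and 9 lower (median -0.12). Ldha, lactate dehydrogenase A, had 383, 366 and 345 TPM in Pcgf-6KO and 716, 680.4 and 693 TPM in Pcgf-4KO (-0.93 ± 0.04, adjusted p = 1.31e-10). Ddit3 (Chop) had 70.8, 65.9 and 57.6 TPM in Pcgf-6KO and 28.1, 26.6 and 24.8 TPM in Pcgf-4KO (1.25 ± 0.13, adjusted p = 1.16e-06), while Asns, on chromosome 6, was lower (-1.21 ± 0.03, adjusted p = 5.74e-13).

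The remaining lists were smaller or mixed, beside shares of 28.8% higher and 24.0% lower over all genes tested. Of 30 tested Wnt, Fgf, Bmp and Hedgehog ligand genes (of 43), 16 were higher and 7 lower, with a median of 0.36, and of the 21 at 1 TPM or more in Pcgf-4KO 11 were higher and 6 lower. Wnt10b had 6.04, 6.25 and 6.48 TPM in Pcgf-6KO and 1.52, 1.38 and 1.96 TPM in Pcgf-4KO (1.48 ± 0.10, adjusted p = 1.84e-08), and Bmp4, which sustains naive cultures, had 18.98, 31.5 and 25.3 TPM in Pcgf-6KO and 45.5, 60.3 and 50.03 TPM in Pcgf-4KO (-1.03 ± 0.15, adjusted p = 4.41e-05). Wnt10b was thus higher and Bmp4 lower in every Pcgf-6KO library. In WT Wnt10b averaged 0.11 TPM and Bmp4 6.93 TPM, so both lay above WT in Pcgf-6KO and in Pcgf-4KO. Of 15 tested cadherin and epithelial-mesenchymal transition genes (of 18), 8 were higher and 3 lower. Interferon response genes had 8 higher and 3 lower of 19 tested (of 26), and of the 15 at 1 TPM or more in Pcgf-4KO 7 were higher and 3 lower. Of 57 clustered protocadherin genes only 11 passed the filter, and 6 of those were higher. At 1 TPM or more in Pcgf-4KO were 6 of the 11, of which 3 were higher, and the count of higher genes ran between 2 and 15 over the alternatives.

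Several of the largest rises were in genes that were low in Pcgf-4KO and high in WT. Meg3, a maternally expressed imprinted RNA (chr12:109541001-109571726), had 109, 101 and 117 TPM in Pcgf-6KO and 3.71, 3.14 and 2.11 TPM in Pcgf-4KO. The other groups averaged 135 TPM in Ring1a/b-dKO, 64.6 in Ring1b-KO, 152 in Ring1a-KO and 166 in WT, so Pcgf-4KO was the lowest of the 6 groups (4.80 ± 0.11, adjusted p = 1.63e-13). Rian, from the same imprinted domain (chr12:109603940-109661716), had 91.2, 96.3 and 108 TPM in Pcgf-6KO and 5.04, 5.33 and 4.41 TPM in Pcgf-4KO, with a WT mean of 218 TPM. Dlk1, the paternally expressed gene of that domain, moved less and downward, with 14.8, 17.6 and 15.6 TPM in Pcgf-6KO and 21.0, 23.9 and 23.8 TPM in Pcgf-4KO (-0.49 ± 0.09, adjusted p = 0.00033). Of 29 tested imprinted genes (of 32), 18 were higher and 5 lower, with a median of 0.29. H19, an imprinted growth-restraining RNA, had 461, 490.3 and 507 TPM in Pcgf-6KO and 241, 251 and 244 TPM in Pcgf-4KO, against 0.287 TPM in WT. It was thus high in both and higher in Pcgf-6KO (0.98 ± 0.10, adjusted p = 9.23e-07).

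Mid1, an X-linked ubiquitin ligase gene (chrX:169685199-170005736), had 45.1, 57.4 and 65.8 TPM in Pcgf-6KO and 1.28, 1.45 and 1.22 TPM in Pcgf-4KO (4.61 ± 0.11, adjusted p = 1.63e-13). Its level was also low in Ring1a/b-dKO, at 1.5 TPM, and Ring1a-KO, at 1.49 TPM, and high in Ring1b-KO, at 54.8 TPM, and WT, at 62.5 TPM. Of 8 Y-linked genes 6 were tested and all 6 were higher in Pcgf-6KO, where they summed to 44.6 to 58.0 TPM, against 0.10 to 0.13 TPM in Pcgf-4KO, 0.05 to 0.41 TPM in Ring1a/b-dKO and 70.5 to 76.8 TPM in WT. Ddx3y, a Y-linked RNA helicase gene, had 20.1, 20.3 and 25.9 TPM in Pcgf-6KO and 0.05, 0 and 0.02 TPM in Pcgf-4KO, with 3.68 TPM in Ring1b-KO, so the 2 groups of libraries differ in Y-linked RNA as well as in Pcgf genotype. The part of that difference in the other results was not tested. Cntn3, a neural adhesion gene, was high in Pcgf-6KO only, with 40.4, 27.4 and 29.9 TPM against 0.21, 0.32 and 0.24 TPM in Pcgf-4KO, but varied between 0.13 and 10.4 TPM in WT. Bc1, a short brain RNA, had 8.88, 11.4 and 15.8 TPM in Pcgf-6KO, was listed at 0 in each Pcgf-4KO library, and reached 14.7 TPM in 1 WT library and 0 in the others.

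Ring1a/b-dKO against WT shares no library with this comparison. It sets cells that lack both catalytic subunits against WT, and it called 64.4% of the genes tested. Ring1a/b-dKO and WT also differ in Y-linked RNA and in Mid1, as given above. Such differences between the cell lines cannot be told apart from the genotype here either. Of the 1368 genes at least 2-fold higher in Pcgf-6KO over Pcgf-4KO, 297 were at least 2-fold higher in Ring1a/b-dKO over WT, which is 21.7% of the 1368 and 9.78% of the 3036 in that comparison (17.0% of all genes tested). Without the fold limit, 567 of the 1368 (41.4%) were called higher in Ring1a/b-dKO, below the 48.6% of all genes tested, 73 (5.34%) were lower, against 15.8% of all genes, and 728 were not called. Of the 323 at least 2-fold lower genes, 57 were at least 2-fold lower in Ring1a/b-dKO, which is 17.6% of the 323 and 11.2% of 508 (2.85% of all tested), and 128 (39.6%) were called lower, 96 (29.7%) higher and 99 not called, against 15.8% lower and 48.6% higher over all genes. Whether the effects of the 2 comparisons differ was not tested for these counts.

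By list, counts in Ring1a/b-dKO over WT are to be read against 48.6% higher and 15.8% lower over all genes. Hox genes were higher in both comparisons, with medians of 1.61 in Pcgf-6KO over Pcgf-4KO and 2.17 in Ring1a/b-dKO over WT. Of the 37 tested, 0 averaged 1 TPM or more in WT, so they passed the filter with the help of mutant libraries. A rise over WT was thus partly set by the filter, and no conclusion is drawn from the shared direction. The 2-cell-like genes had 16 higher of 17 in Pcgf-6KO over Pcgf-4KO and 2 higher in Ring1a/b-dKO over WT, with medians of 1.72 and 0.07. Naive pluripotency genes had 16 lower of 17 in Pcgf-6KO over Pcgf-4KO, and 7 lower and 10 higher in Ring1a/b-dKO over WT, with medians of -1.03 and 0.24. Germline genes had 23 lower of 47 in Pcgf-6KO over Pcgf-4KO, and 43 higher in Ring1a/b-dKO over WT, with medians of -0.25 and 2.09. Tet1 fell to 22.5 ± 8.9 TPM in Pcgf-6KO, against 111 ± 2.8 TPM in Pcgf-4KO, and had 128 TPM in Ring1a/b-dKO and 138 TPM in WT (SD, n = 3). These values stand side by side, and the difference between the comparisons was not tested.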

How the data were processed

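Expression was measured by RNA sequencing in 18 libraries, 3 for each of 6 genotypes, grouped by their titles. The authors deposited TPM (transcript shares corrected for length) for 56551 genes, and each library sums to 1000000. Per the submitters' processing notes, the build was GRCm38.p5 and the tools included RSEM, edgeR and TopHat2 2.1.1; the sources used here do not say which tool did what, nor which annotation was used. Read counts cannot be had from TPM, so the depth per library is unknown and counting intervals are not given; exact zeros are described as listed at 0. The 6 columns of the authors' group means were not used.

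The 17842 genes that reached 1 TPM in 3 or more of 18 libraries were fitted on log2(TPM + 1) with limma 3.58.1 in R 4.3.3 (1 mean per group over all 18 libraries, empirical Bayes with a trend, two-sided, Benjamini-Hochberg over all genes tested, called at adjusted p under 0.05). The fit was tested on simulated data. Alternatives were another pseudocount (0.1 TPM), other filters, the 6 libraries alone, median ratio scaling, quantile normalization, nuclear protein-coding genes only, a replicate block, and leaving out each library.

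Named genes were the 8 Ring1 and Pcgf genes, the 10 largest called rises and falls at 5 TPM or more in the higher group without overlap, up to 3 of the largest called rises and falls of each of 36 gene lists, and 13 further genes fixed by name. A member outside this rule is named only as an uncalled, unmeasured or exceptional one and was picked after its values were seen. The lists and the comparison were chosen with earlier results of these data known. Symbols and positions came from GENCODE M21 (GRCm38), and promoters from RefSeq. A comparison of promoters across genes was not made, because only 65.3% of tested genes (11658) matched an entry.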

Additional observations from a re-analysis of the deposited data

How the results depend on the processing

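The 4 counts of called genes stayed within 1.5 times their value except in these cases: at least 2-fold lower genes numbered 625 with a pseudocount of 0.1 TPM and 518 after quantile normalization, and at least 2-fold higher genes 708 with nuclear protein-coding genes only, where fewer genes were tested; otherwise the cause was not tested. Leaving out each library in turn gave 4423 to 5027 higher, 3625 to 4738 lower, 1177 to 1372 at least 2-fold higher and 273 to 409 at least 2-fold lower genes; without Pcgf-6KO replicate 3, higher genes were 48.7% of the calls. With the replicate number as a block the counts were 5103, 4256, 1368 and 323, and of the named genes Runx1 and Pmvk lost their call. Deviations from the group mean correlated at 0.0431, 0.0483 and 0.0187 between Pcgf-6KO and Pcgf-4KO libraries with the same number. These correlations were low, but each library correlated best with the one of its own number. The labels do not say what the replicate number stands for, so whether the libraries are paired is not known. Without chromosome 6, an alternative added after the data were seen, 5007 genes were higher and 3922 lower. Of 190 named genes, 172 kept direction and side of the threshold under all 14 settings. Only Ring1 and Pcgf3, neither called, changed sign: Ring1 to -0.0461 and Pcgf3 to -0.0208 after quantile normalization, and when libraries were left out Ring1 ranged from -0.0694 to 0.157 and was -0.000938 without Pcgf-4KO replicate 1, and Pcgf3 ranged from -0.0886 to 0.175. With a pseudocount of 0.1 TPM the log2 fold changes of genes near 0 in Pcgf-4KO were larger, 6.15 for Pcgf6, 5.10 for Hoxa2, 4.83 for Otx2 and 2.11 for Fas. TPM hides depth, so low genes may be less precise than their SE.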
